A study of Homo sapiens with 372 samples.

Results

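The mitochondrial ribosomal proteins were taken as every gene listed whose symbol began with MRPL or MRPS followed by a digit. The rule found 77 of the 9664 genes listed, 48 with a large-subunit name (MRPL) and 29 with a small-subunit name (MRPS), and used no measured value. All 77 passed the detection limit, a value above 0 in more than 30% of cells in 1 or more conditions, as did 9655 genes in all. MRPL58, the release factor built into the large subunit, was listed under its older symbol ICT1 and lay outside the rule. Single A2780 cells, an established line from an ovarian endometrioid adenocarcinoma, were captured with the Fluidigm C1 system and sequenced as full-length Smart-seq2 libraries. The table held 338 cells in 6 conditions. There were 46 untreated control cells, 56 cells after 16 h and 53 after 48 h of 5 nM paclitaxel, 63 after 2 h and 61 after 16 h of 75 μM celecoxib, and 59 after 16 h of 5 nM paclitaxel with 75 μM celecoxib (the combination). Paclitaxel stabilizes microtubules and celecoxib inhibits cyclooxygenase-2. Each condition was a single experiment, so cells were not replicates, no test between conditions was made, and each SD is a spread over cells. The control cells came from 1 of 4 blocks of 96 library indices, and block and condition cannot be told apart for the control, paclitaxel at 16 h and both celecoxib times.

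The mitochondrial ribosome translates the few mRNAs of the mitochondrial genome, which code for core subunits of the oxidative phosphorylation (OXPHOS) complexes. All of its proteins are coded in the nucleus, made in the cytosol and imported, and they assemble on rRNAs made in the mitochondrion. Some are relatives of bacterial ribosomal proteins and others occur only in mitochondria. The names do not follow location in every case, since MRPS30 and MRPS18A sit in the large subunit, and MRPS36 has since been assigned to the 2-oxoglutarate dehydrogenase complex.

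Promoter sequences are shown first because short motifs were counted at the starts of the members. RefSeq windows (GRCh38.p14, 250 bases before and 50 after the start) were matched for 68 of the 77 genes and for 7582 of the genes listed. The letters AAGATGGC, those of the YY1 motif, were present on either strand in 20 of the 68 windows (29.4%), against 6.44% of all 7582. The letters CCGGAAG, the core bound by ETS factors such as GABPA, were present in 28 (41.2%), against 22.1%. The NRF1 core GCATGCGC was present in 6 (8.82%), against 6.44%. The YY1 and ETS letters share AAG and overlapped in none of the 68 windows, and at least 1 motif was present in 60.3% of the members' windows and 31.2% of all windows. The YY1 letters contain ATG, and 14 of their 21 sites in members placed that ATG on an annotated initiation codon (GENCODE version 44), of the same gene or of a neighbour. Sites elsewhere were present in 8.82% of the members' windows and 3.26% of all windows. The following 30-base stretches show the YY1 letters in capitals, each read 5′ to 3′ in the direction of the motif.

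MRPL42: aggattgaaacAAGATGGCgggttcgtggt
MRPL45: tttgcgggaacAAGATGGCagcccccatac
MRPL50: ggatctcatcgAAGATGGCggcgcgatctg
MRPL52: tacgatgacccAAGATGGCggagccgtgat
MRPS30: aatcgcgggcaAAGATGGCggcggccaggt

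These stretches lay on GRCh38.p14 at chr12:93467511-93467540 (plus strand), chr17:38297170-38297199 (plus), chr9:101398577-101398606 (minus strand), chr14:22829778-22829807 (plus) and chr5:44808949-44808978 (plus). The 29-base stretches below show the ETS letters in capitals in the same way.

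MRPL47: ggcttgagacgCCGGAAGtgacgctatcg
MRPL52: agccggggtagCCGGAAGtaggcgtggcc
MRPS22: tctataagggcCCGGAAGacttccggccc
MRPS34: gccggaagtcaCCGGAAGaggccggtgtc

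They lay at chr3:179604660-179604688 (minus strand), chr14:22829871-22829899 (minus), chr3:139343896-139343924 (plus) and chr16:1773146-1773174 (plus). MRPS22 and MRPS34 each held the ETS letters at 3 places, and the stretch shown for each also holds another match in small letters. That of MRPS22 is on the opposite strand. A match describes letters only, and no binding was measured.

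In control cells the members were among the more abundant genes. The expression value of a gene in a cell (E-value) is log2(N/10 + 1), where N is the TPM normalized to spike-in RNA. Mean E-values of the 77 members ran from 2.57 to 6.94 in the control. MRPL51 was the most abundant, with a mean N of 1328 normalized TPM, followed by MRPL14 (1180), MRPL20 (969), MRPL42 (843) and MRPL27 (769.7). The lowest means were those of MRPL30 (73.1), MRPS31 (84.7), MRPL49 (87.2), MRPL1 (112) and MRPS36 (120.1). TPM is a value per transcript length, so these levels can be compared between genes. A control cell had a median of 77 members detected, and treated cells had medians of 74 to 75, with 58 as the fewest in any cell.

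As a share of all expression in a cell, the members took least after combination treatment. Their summed N was a median of 2.00% of the sum over all genes listed in control cells (lowest 1.43%, highest 2.56%, SD 0.227, n = 46). After 48 h of paclitaxel the median was 1.77% (1.17 to 2.06%, n = 53), and after 2 h of celecoxib it was 1.74% (1.38 to 2.16%, n = 63). In the combination it was 1.69% (1.29 to 2.16%, n = 59), which is 0.844 of the control median. The ranges of single cells overlapped between all conditions, but 57 of 59 combination cells, 58 of 63 cells at 2 h of celecoxib and 48 of 53 cells at 48 h of paclitaxel lay below the control median. After 16 h of paclitaxel (1.96%, 1.43 to 2.25%) 32 of 56 cells and after 16 h of celecoxib (2.06%, 1.46 to 2.65%) 26 of 61 cells did so. The 16 h celecoxib median was 1.03 times that of the control, or 0.995 times it when the 50 most abundant genes were left out of the total, and the 16 h paclitaxel median was 0.976 times it. The share does not depend on the spike-in scaling, which cancels within a cell. MRPL and MRPS members moved alike, with combination medians of 0.856 and 0.826 times the control.

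**Figure D1:**
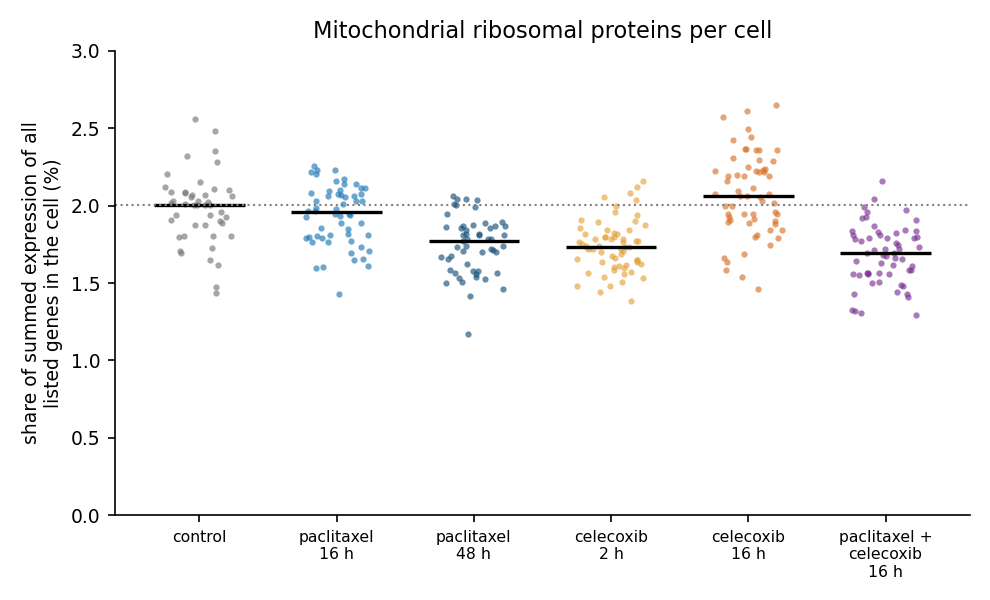
Summed expression of the 77 members in each cell as a percentage of that of all genes listed (vertical axis), by condition. Each point is a cell, black bars are medians and the dotted line is the control median of 2.00%. Most cells of paclitaxel 48 h, celecoxib 2 h and the combination sit below the line, and cells of the other treatments lie on both sides of it.

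On the deposited spike-in scale the median difference of the members was below 0 in every single-drug condition and above 0 in the combination. Medians over all 9655 genes had the same signs. They were -0.41 and -0.26 for paclitaxel 16 h and 48 h, -0.26 and -0.48 for celecoxib 2 h and 16 h, and 0.33 in the combination. In the combination 66 of 77 members lay above 0, as did 7964 of 9655 genes. A member was counted as lower or higher when the mean E-value over cells was more than log2 of 1.5 (0.585) away from the control mean. All comparisons use the same control cells. After 16 h of paclitaxel the median difference over the 77 members was -0.87 and 69 were lower (37.3% of all 9655 genes were), with none higher (0.0932% of all genes). After 48 h it was -0.89 with 62 lower (26.6% of all genes) and none higher (0.922%). After 2 h of celecoxib it was -0.84 with 57 lower (25.7%) and none higher (1.12%). After 16 h of celecoxib it was -1.32 with 75 lower (43.9%) and none higher (0.383%). In the combination the median difference was 0.33, with 21 members higher (30.4% of all genes) and only MRPS11 lower (1.76%).

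The members had a higher level than most genes, with a median control E-value of 4.98 against 1.45 over all genes. Among the 2507 other genes whose control mean lay within the members' range, a set chosen after seeing the data, 81.5%, 64.9%, 60.9% and 90.4% were lower in the 4 single-drug conditions in the order above. The corresponding shares of the members were 89.6%, 80.5%, 74.0% and 97.4%. The other genes in the range are called genes of like level below, though levels within the range were not matched to those of the members. In the combination 44.3% of genes in that range were higher, against 27.3% of the members. The median difference of those genes was -0.95, -0.75, -0.72 and -1.28 for the single drugs and 0.51 for the combination. Summed over the genes listed, a cell held a median of -0.99, -0.64, -0.76 and -1.52 on the log2 scale relative to control for the single drugs and 0.49 for the combination. Within each condition a cell's mean member difference followed its summed expression (Pearson's r from 0.90 to 0.97 across the 46 to 63 cells, where both values share the cell's spike-in scaling).

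**Figure D2:**
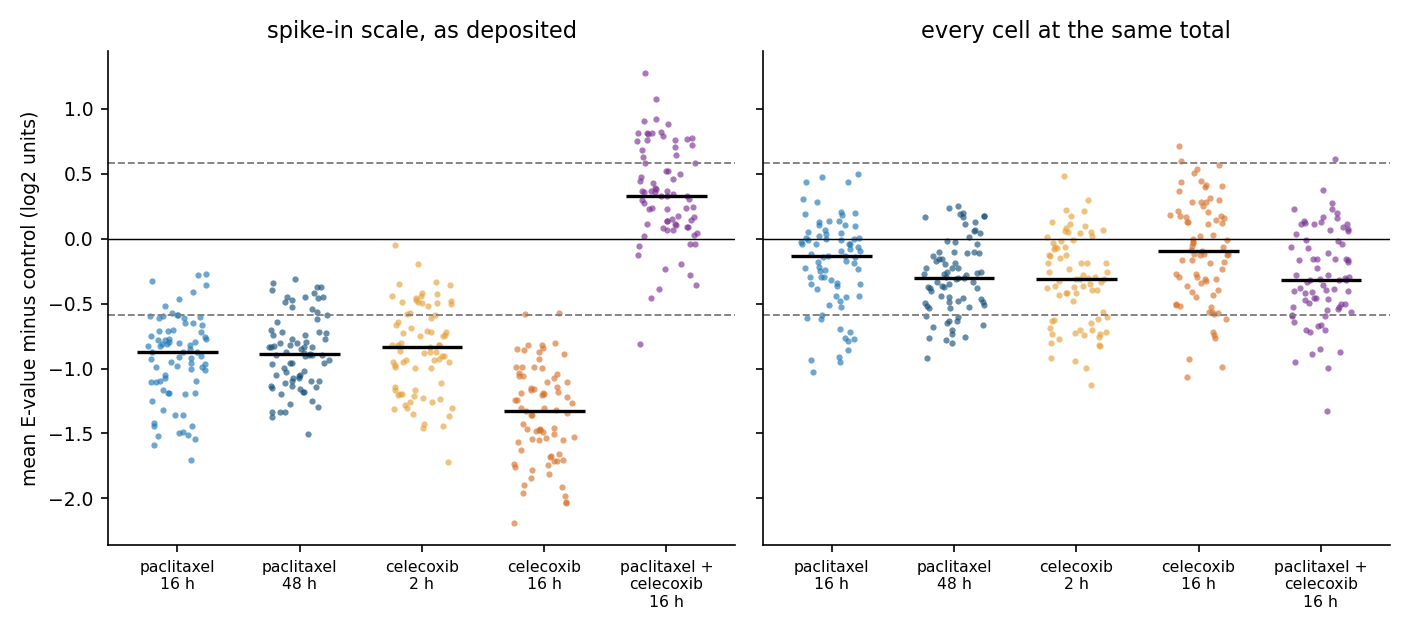
Mean E-value minus the control mean (vertical axis, log2 units) for each of the 77 members, 1 point per gene, by treatment, on the deposited scale (left) and with every cell set to the same total (right). Black bars are medians and dashed lines the limit of 0.585 in either direction. On the left the single drugs sit below 0 and the combination mostly above it, and on the right all 5 medians lie between -0.10 and -0.32.

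With every cell set to the same total, the direction for the combination turned. The median difference of the members was -0.32 in the combination, where 58 of 77 lay below 0, 15 were past the limit downward (5.80% of all genes) and MRPL24 alone was past it upward (5.96%). It was -0.31 after 2 h of celecoxib, with 22 lower (8.12% of all genes) and none higher (3.31%), and -0.30 after 48 h of paclitaxel, with 14 lower (5.78%) and none higher (3.28%). It was -0.14 after 16 h of paclitaxel, with 13 lower (10.0%) and none higher (1.40%), and -0.10 after 16 h of celecoxib, with 7 lower (7.95%) and 2 higher (7.37%). The 2 higher were MRPL57, a protein found only in mitochondrial ribosomes, at 0.71 and MRPS34, which binds the small-subunit rRNA, at 0.59. Genes in the members' range of control level had medians of -0.09 in the combination, -0.22 after 2 h of celecoxib, -0.20 after 48 h of paclitaxel, -0.30 after 16 h of paclitaxel and -0.15 after 16 h of celecoxib. Members therefore lay 0.22 below genes of like level in the combination, 0.084 and 0.097 below at 2 h of celecoxib and 48 h of paclitaxel, and above them in the other conditions. Of genes in that range 15.6%, 22.4%, 16.2%, 25.3% and 21.3% were lower in the same order.

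Over the 5 treatments at the same total, 40 members were never past the limit downward, 18 were so once, 9 in 2 treatments, 5 in 3 and 5 in 4. Those in 3 or more were 13.0% of the members, against 5.48% of all genes and 15.8% of genes of like level, and those in 4 were 6.49%, against 2.89% and 8.93%, so repeated calls were not more frequent among members than among genes of like level. All treatments share the control cells. The 5 in 4 treatments were MRPS12, MRPS2, MRPS22, MRPL9 and MRPL45. At 48 h of paclitaxel all 5 were past the limit in index block 2 (-1.11, -1.17, -1.19, -1.15 and -0.65 in that order). None was past it in block 4, which also held the control (-0.29, -0.47, -0.49, -0.56 and -0.57). These 5 members differed in the treatment that was the exception. They were chosen for their differences, so their values are a description.

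MRPS12 (chr19:38930944-38933168, plus strand, GENCODE version 44 on hg38), a relative of the bacterial protein of the decoding centre, was low in every treatment except 16 h of celecoxib. Its E-value at the same total had a median of 5.24 in control cells (0 to 6.47, n = 46). The medians were 4.63 (0 to 6.28) and 4.80 (0 to 6.41) after 16 and 48 h of paclitaxel, and 4.04 (0.46 to 5.84) after 2 h of celecoxib. After 16 h of celecoxib the median was 5.45 (1.74 to 7.55) and in the combination 4.25 (0 to 6.31). Single cells overlapped in all conditions, and the medians were lowest at celecoxib 2 h and in the combination. The differences in mean were -0.72, -0.63, -1.13, 0.28 and -0.999 in that order of treatments. Between 2 and 16 h of celecoxib MRPS12 moved upward by 1.41, more than any other member. MRPS2, a relative of a bacterial small-subunit protein, shared that exception, with differences of -1.03, -0.76, -0.72, 0.28 and -0.89.

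MRPS22 (chr3:139005806-139360497, plus strand), a small-subunit protein with no bacterial relative, had the opposite exception. Its E-value at the same total had a median of 4.42 in control cells (0 to 5.40) and 4.63 in the combination (0 to 5.60). The medians were 4.00 (0 to 5.67) and 3.90 (0 to 5.94) after 16 and 48 h of paclitaxel, and 3.80 (0 to 5.80) and 3.88 (0 to 5.82) after 2 and 16 h of celecoxib. The differences in mean were -0.79, -0.78, -0.92 and -1.07 for the single drugs and 0.08 for the combination. It was detected in 45 of 46 control cells and 57 of 59 combination cells, against 51 of 61 cells at 16 h of celecoxib and 50 of 56 at 16 h of paclitaxel. On the deposited scale MRPS22 had the lowest value of any member in any treatment, -2.19 at 16 h of celecoxib, and 0.76 in the combination.

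MRPL45 (chr17:38297023-38323217, plus strand), which holds the ribosome to the inner membrane near its exit tunnel, was past the limit in all 4 single-drug conditions, at -0.93, -0.60, -0.72 and -0.99, and was at -0.32 in the combination. Its control mean E-value at the same total was 3.47 ± 0.870 (SD over 46 cells) and that at 16 h of celecoxib was 2.49 ± 1.63 (61 cells). MRPL9 (chr1:151759647-151763496, minus strand), a relative of bacterial L9, was at -0.77, -0.80, -0.78 and -0.85 in both paclitaxel times, celecoxib 2 h and the combination, and at -0.40 after 16 h of celecoxib. MRPL15, MRPL55, MRPL36, MRPL4 and MRPL50 were past the limit in 3 treatments. MRPL15 was the lowest of all members at 48 h of paclitaxel, whether on the deposited scale (-1.50) or the same-total one (-0.92).

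**Figure D3:**
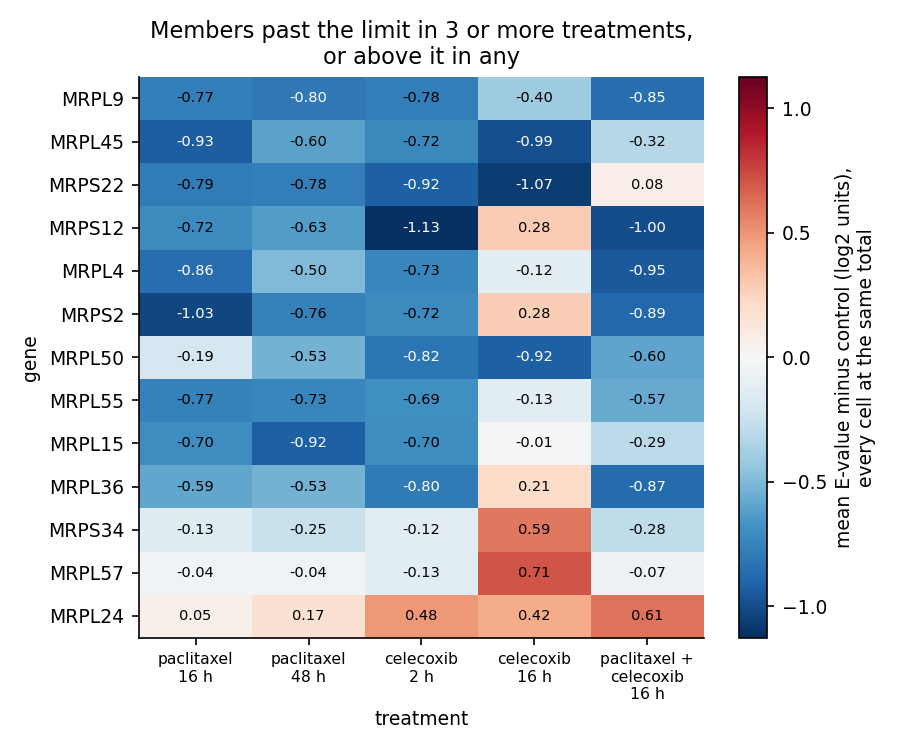
Mean E-value minus the control mean with every cell at the same total (colour and printed value, log2 units), for the 13 members that were past the limit downward in 3 or more treatments or upward in any. Rows are genes in order of their mean difference and columns are treatments. MRPS12 and MRPS2 are near or above 0 only at 16 h of celecoxib, MRPS22 only in the combination, and MRPL24 is above 0 in every column.

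MRPS11 and MRPL24 marked the ends of the combination. MRPS11 (chr15:88467453-88480776, plus strand), a relative of a bacterial platform protein, had an E-value at the same total with a median of 4.58 in control cells (2.39 to 5.66). The combination median was 3.86 (0 to 5.47), and the medians of the other treatments lay between 4.00 and 4.75. It was detected in all 46 control cells and in 51 of 59 combination cells, and the cells of both groups overlapped. Its difference in mean was -1.33 in the combination at the same total and -0.81 on the deposited scale.

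MRPL24 (chr1:156737303-156741590, minus strand), a relative of a bacterial exit-tunnel protein, had a control median of 3.53 (0 to 5.13) at the same total. Its medians were 3.78, 4.16, 4.40 and 4.33 for paclitaxel 16 h and 48 h and celecoxib 2 h and 16 h, and 4.18 (0 to 5.28) in the combination. Every treatment had a higher median than the control, though the cells overlapped. The differences in mean were 0.05, 0.17, 0.48, 0.42 and 0.61, the last alone past the limit. In the combination MRPL24 was past the limit in index block 1 (0.69) and not in block 3 (0.50). On the deposited scale MRPL24 was the highest member in the combination (1.27) and after 2 h of celecoxib (-0.05).

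**Figure D4:**
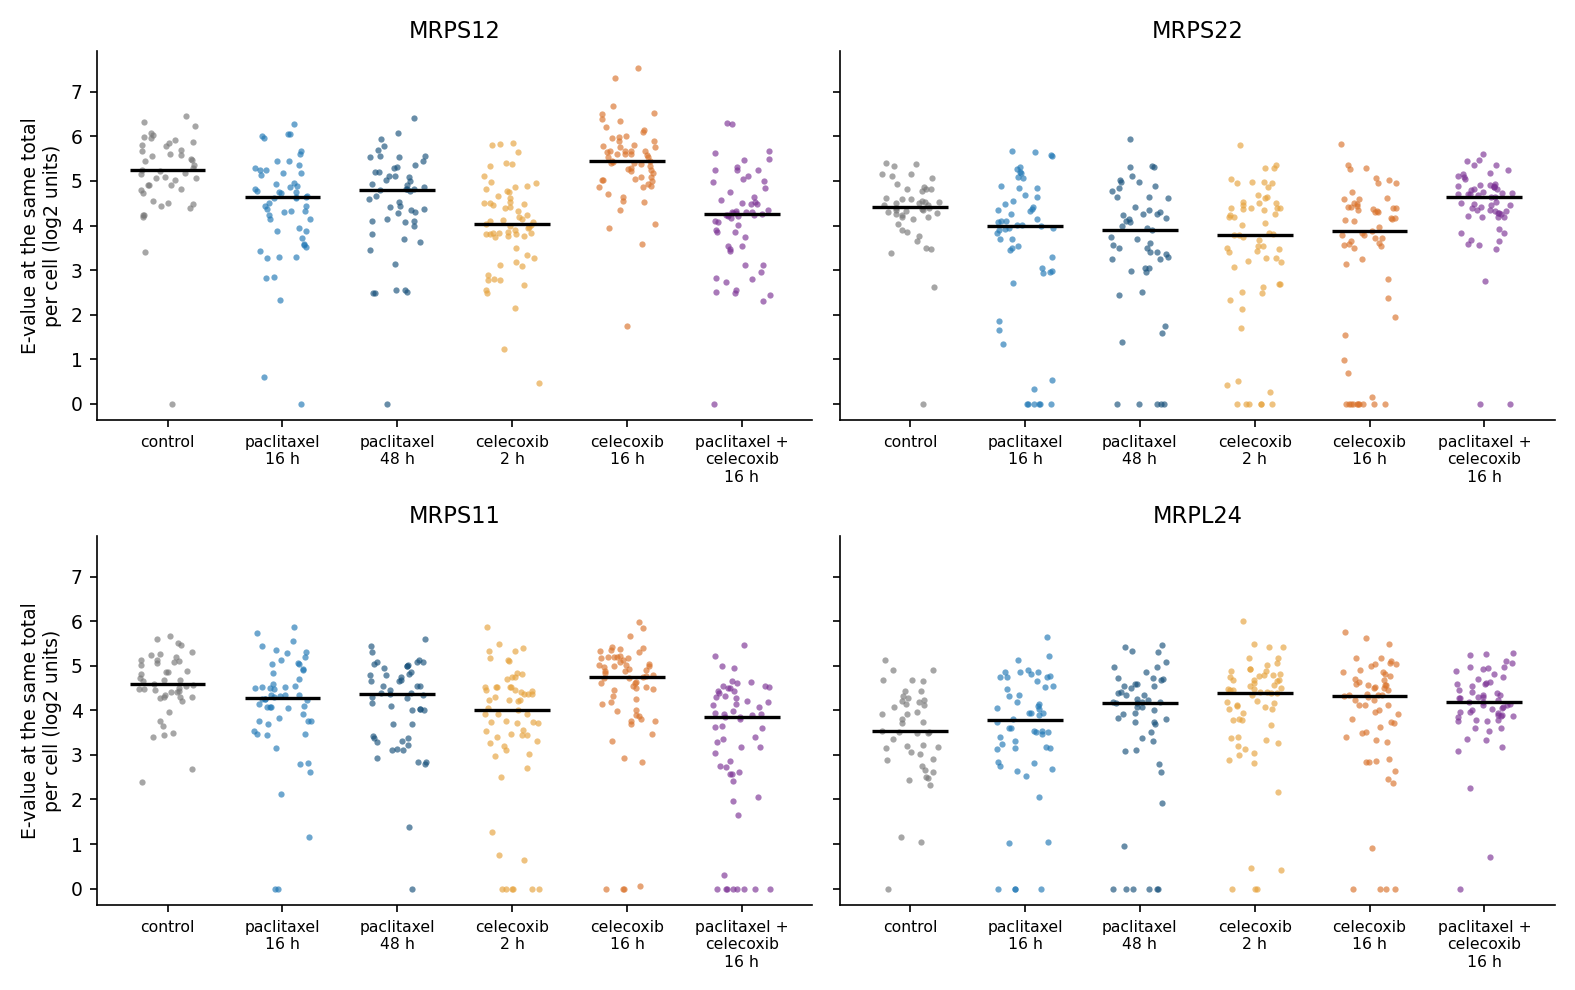
E-value with every cell at the same total (vertical axis, log2 units) of MRPS12, MRPS22, MRPS11 and MRPL24 in each cell (points) by condition, with medians as black bars. The median of MRPS12 is lowest at 2 h of celecoxib (4.04) and highest at 16 h (5.45), cells with MRPS22 at 0 are mostly those under single drugs, MRPS11 is lowest in the combination (3.86), and MRPL24 is lowest in control cells (3.53).

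By place in the ribosome, only some of the members were put into groups, and the others were given none. Of the 35 same-total medians (7 groups in 5 treatments), 31 were below 0. The medians of genes of like level were also below 0 in all 5 treatments. They were -0.30 and -0.20 for paclitaxel 16 h and 48 h, and -0.22 and -0.15 for celecoxib 2 h and 16 h. In the combination the median of those genes was -0.09. The 3 stalk proteins, which contact the translation factors, had medians of -0.39 after 2 h of celecoxib and -0.42 in the combination, and included MRPL12 at 0.00, -0.27, -0.39, 0.21 and -0.46, none past the limit, while MRPL10 was past it at 16 h of paclitaxel (-0.91) and 2 h of celecoxib (-0.74) and MRPL11 at 16 h of celecoxib (-0.75). The 3 proteins grouped here as the peptidyl transferase core (MRPL2, MRPL3 and MRPL4) had medians from -0.73 (2 h of celecoxib) to -0.29 (16 h of celecoxib). Of these, MRPL3 and MRPL4 were past the limit after 2 h of celecoxib (-0.83 and -0.73) and MRPL2 was at 0.05. The 4 proteins grouped here as exit tunnel were MRPL22, MRPL23, MRPL24 and MRPL45, without MRPL4 (-0.95 in the combination). Their medians were 0.05 after 16 h of paclitaxel and -0.05 in the combination, where MRPL24 was past the limit upward and MRPL23 (-0.72) downward. These medians depend on where MRPL4 is placed. The 6 proteins of the central protuberance had a median of -0.49 in the combination and 0.07 at 16 h of celecoxib, with MRPL27 (-0.60) past the limit in the former. The 4 proteins of decoding and mRNA entry had medians of -0.60 in the combination and 0.28 at 16 h of celecoxib, where all 4 lay above 0. The 6 proteins of the small-subunit head had a median of 0.11 in the combination, with MRPS7 alone past the limit (-0.66). The 5 platform and body proteins had a median of -0.39 there, with MRPS11 and MRPS17 (-0.67) past it.

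Of the members whose names do not match their place, MRPS18A was past the limit once, at 2 h of celecoxib (-0.63), and MRPS30 and MRPS36 were past it in none. MRPS36 was at 0.43, 0.07, 0.01, -0.09 and 0.27, and it was the highest MRPS member in the combination. That rank did not hold in each index block, since MRPS36 was at 0.57 in block 1 and -0.13 in block 3, where MRPS10 was at 0.24. On the deposited scale MRPS36 was the highest of all members after 16 h of paclitaxel (-0.27). ICT1 (MRPL58) was at -0.16, -0.54, -0.61, 0.10 and -0.54.

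Set against each other at 16 h, the combination exceeded either drug alone on the deposited scale and not at the same total. Against celecoxib at 16 h all 77 members were higher on the deposited scale (66.0% of all genes were), with a median of 1.67. At the same total the median was -0.23, with 3 higher (5.03% of all genes) and 17 lower (4.39%). Of the members at the same total, MRPS22 was the highest at 1.14 and MRPS12 the lowest at -1.28. Against paclitaxel at 16 h 75 members were higher on the deposited scale (62.5%), with a median of 1.26. At the same total the median was -0.11, with 2 higher (9.57%) and 5 lower (1.64%). Genes of like level again had higher medians, 1.44 and 0.19 in that order of scales. Between 2 and 16 h of celecoxib at the same total, the median of the members was 0.27 (0.08 for genes of like level). Of the members 15 were higher (7.88%) and 2 lower (3.90%). Between 16 and 48 h of paclitaxel the median of the members was -0.12 at the same total and 0.04 on the deposited scale. Genes of like level were at 0.07 and 0.20.

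Paclitaxel at 48 h and the combination each came from more than 1 index block. In the combination the 34 cells of block 1 had a deposited median difference of 0.41 and the 25 cells of block 3 had 0.28. At the same total both were at -0.31, and the shares of expression were 1.70% and 1.69%. At 48 h of paclitaxel the 22 cells of block 2 were at -1.12 and the 31 cells of block 4, which also held the control, at -0.71. At the same total these were -0.39 with 22 members lower (9.06% of all genes) and -0.27 with 6 lower (5.85%), and the shares were 1.76% and 1.78%. The lower share in both conditions was therefore present in each block.

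The members did not keep a fixed proportion to the genes for OXPHOS subunits, whose mitochondrial partners they translate, or to the cytosolic ribosomal proteins. The 79 OXPHOS subunits coded in the nucleus had a summed N of 3.47 times that of the members in the median control cell (2.93 to 5.81). The ratio was 4.45 (3.18 to 7.52) in the combination, 4.44 (3.15 to 6.34) after 2 h of celecoxib, and 4.27 in both paclitaxel conditions (3.10 to 5.81 at 16 h and 2.99 to 7.10 at 48 h). It was 2.90 (2.08 to 3.77) after 16 h of celecoxib. The ratio was above the control median in 56 of 59 combination cells, 59 of 63 at 2 h of celecoxib, 52 of 56 for paclitaxel 16 h, 48 of 53 for paclitaxel 48 h, and 9 of 61 for celecoxib 16 h. The ratio of the 85 cytosolic ribosomal proteins to the members went the same ways, from 6.12 in control cells to 6.99 in the combination, 7.79, 7.62 and 7.46 after celecoxib 2 h and paclitaxel 16 and 48 h, and 5.17 after 16 h of celecoxib. Celecoxib at 16 h was thus the condition in which members took more of the expression relative to both groups, and the ranges of cells overlapped throughout.

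Gene by gene at the same total, the OXPHOS subunits had a median of 0.05 in the combination with 5 of 79 higher and 1 lower, and the cytosolic ribosomal proteins had -0.06 with 1 of 85 higher and 4 lower, against -0.32 for the members. The 5 higher OXPHOS subunits are 6.33% of that list, near the 5.96% of all genes, and the 4 lower cytosolic ones 4.71%, near 5.80%. At 16 h of celecoxib the OXPHOS median was -0.23 with 17 lower (21.5%) and 1 higher, and the cytosolic median -0.27 with 10 lower (11.8%), where 7.95% of all genes were lower, against -0.10 for the members.

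**Figure D5:**
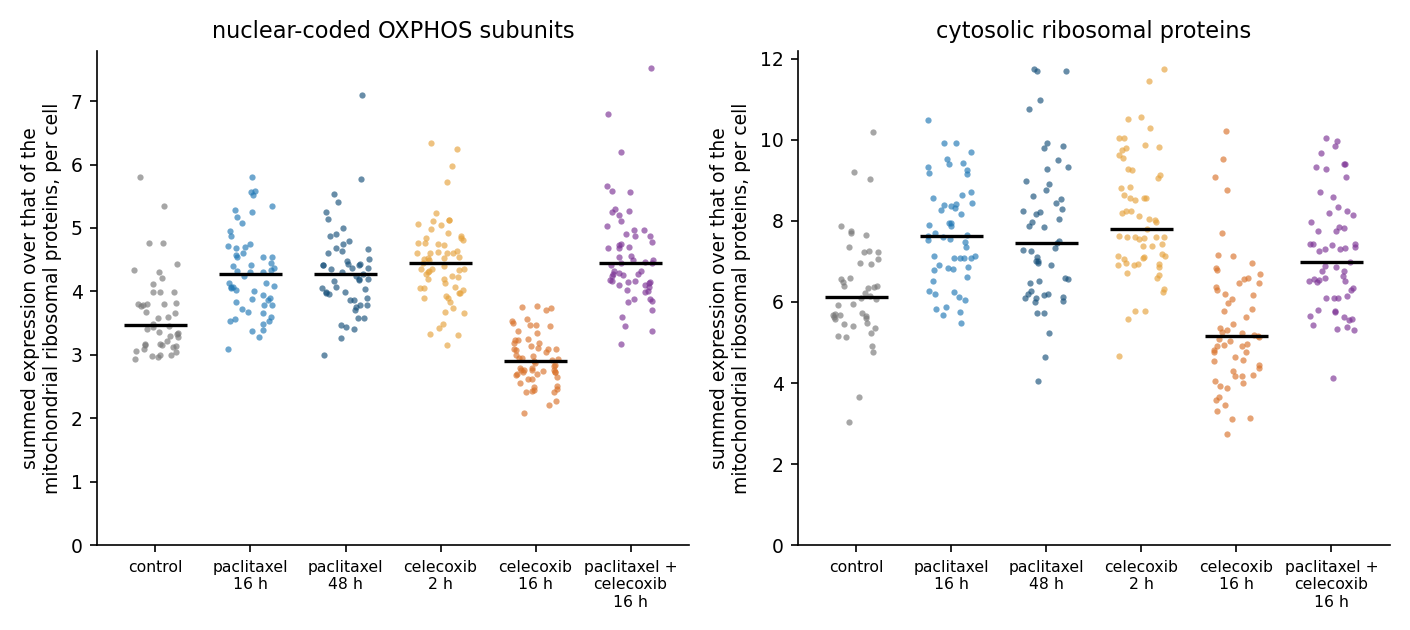
Summed expression of the nuclear-coded OXPHOS subunits (left) and of the cytosolic ribosomal proteins (right) divided by that of the 77 members in each cell (points), by condition, with medians as black bars. The OXPHOS ratio has medians of 4.27 to 4.45 in 4 treatments, against 3.47 in control cells and 2.90 after 16 h of celecoxib, and the cytosolic ratio is likewise lowest there (5.17).

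Other genes of mitochondrial translation did not all move with the members. Over all genes 5.80% were lower and 5.96% higher in the combination at the same total. At 16 h of celecoxib these shares were 7.95% and 7.37%. Of 15 translation factors at the same total, 2 were lower (13.3%) and none higher in the combination (median 0.09). MRRF, which recycles the ribosome, was at -0.70 there and at -1.17 after 2 h of celecoxib, while the elongation factor TUFM was at 0.26 and 0.02. TSFM was the other factor past the limit in the combination (-0.63), and C12orf65 was the highest there (0.36). In the combination 8 of the 15 factors lay above 0 and 7 below. At 16 h of celecoxib 2 factors were lower (13.3%) and 1 higher (6.67%). The latter was C12orf65, which rescues stalled ribosomes (0.66). Of 24 genes of ribosome assembly and rRNA modification, 4 were lower (16.7%) and 1 higher (4.17%) in the combination (median -0.30). MTG1, a GTPase of large-subunit assembly, was the lowest (-1.43), and METTL15, which methylates the small-subunit rRNA, the highest (0.63). At 16 h of celecoxib METTL17, of small-subunit assembly, was the lowest (-1.11) and NGRN, of the large-subunit rRNA, the highest (0.81). There 2 genes were past the limit each way (8.33%), near the shares of all genes.

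Of 6 genes of mitochondrial transcription, TFAM was the only one lower in the combination (-0.85) and at 16 h of celecoxib (-0.62), with none higher. TFAM packages mitochondrial DNA and takes part in its transcription, and is not the polymerase. This 1 gene is 16.7% of its list, and the shares of all genes given above apply here too. Of 19 mitochondrial tRNA synthetases, 3 were lower (15.8%) and HARS2 (0.79) higher (5.26%) in the combination, and SARS2 was the lowest (-0.75). SARS2 was also the only one lower at 16 h of celecoxib (-0.73), or 5.26% of the list. A list of 6 genes held OXA1L beside mitoribosome proteins under other names. Of these 6, GADD45GIP1 alone was past the limit in the combination (-0.61), and DAP3, PTCD3, CHCHD1 and AURKAIP1 were at 0.15, 0.39, -0.15 and -0.17.

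Members with the ETS letters had a same-total median of 0.12 at 16 h of celecoxib and those without had -0.13. After 2 h of celecoxib these were -0.17 and -0.41. Members with and without the YY1 letters had medians of -0.43 and -0.27 at 48 h of paclitaxel and -0.34 and -0.30 in the combination. In every treatment the median was higher with the ETS letters than without and lower with the YY1 letters than without. The 6 members with the NRF1 core went both ways, with -0.11 against -0.33 in the combination and -0.15 against -0.04 at 16 h of celecoxib. Whether the letters had a part was not tested. Median transcript length was 1260 bases for members and 2070 for genes of like level, and across the 77 members length and same-total difference had Pearson's r from -0.20 to 0.15, a description across genes, which are not independent.

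The genes whose condition means at the same total most resembled the members' mean over the 6 conditions were URB2 (r = 0.996), HOXB7 (0.976), ICT1 (0.976), POP7 (0.970) and NRDE2 (0.969). With 6 points, picked as the highest among all genes, these values are a description.

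Some members are uncertain. Named pseudogenes exist for 36 members (81 in all, 8 of MRPS21), between which estimated counts can be split. Exons of MRPL47, MRPL49, MRPS18C, MRPS25 and MRPS7 overlap a gene on the opposite strand, which Smart-seq2 libraries do not tell apart, and those of MRPL30 and MRPS6 a gene on the same strand. The labelled tissue could be checked in part. KRT18 was detected in 23.9% and VIM in 76.1% of control cells, and EPCAM, KRT8, KRT19, CDH1, PAX8, WT1, MUC16 and EMX2 were not analysed here. Of markers of other cell types, COL1A2 was detected in 17.4% and LYZ in 37.0% of control cells (mean E-values 0.45 and 0.15), and their part in the results was not tested. COL1A1, DCN, PTPRC, CD3E, PECAM1 and VWF were not analysed here.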

How the data were processed

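The authors trimmed reads with Trim Galore, estimated expression with RSEM 1.3.0 and Bowtie2 against hg38 transcripts (GENCODE version 28) plus 3 spike-in RNAs, normalized TPM to a spike-in, removed 34 of 372 cells, and deposited log2 E-values, E = log2(N/10 + 1). Read depth is unknown here, and medians of 6126 to 6630 genes were detected per cell. From the deposited log2 values, N was recovered and, as a second scale, every cell was set to the median total. Differences are between means of E-values and understate changes of low genes. A difference past log2 of 1.5 was counted. With 1 capture per condition no test was possible. Doublets were not called because the table holds no counts.

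Genes named were mainly the 3 highest and lowest per treatment and scale and those past the same-total limit in 2 or more treatments. Others were the 5 highest and lowest control levels, fixed members, list extremes and the 5 genes most like the members. A few more genes were named beside these. The 77 members and the lists were chosen with earlier results of these data known, and the lists were matched to 9643 identifiers of GENCODE version 44. The alternatives were the same total, linear means, a pseudocount of 1, other detection and fold limits, other totals, index blocks and cells left out. Short stretches around a motif were shown for more members than the rule on promoters named, a choice made after the motif search. Steps were tested on simulated data. Python 3.11.15, numpy 2.4.6 and pandas 2.3.3 were used. The authors' state per cell was not used.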

Additional observations from a re-analysis of the deposited data

How the results depend on the processing

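Of 112 alternatives to the 15 results, 86 moved a median by at most 0.2, a count by at most 1.5 times or a share by at most 1.1 times, and 26 moved it further. The 86 include alternatives that could hardly differ. A 50% detection limit, every member listed and protein-coding symbols only gave the reported values again in every treatment. Leaving out cells noted 0 or debris concerned 1 retained cell and changed only the combination median, to 0.331. Of the medians, 3 changed sign, all under same-total scaling. The scaling decided most. With the same total per cell the median difference went to -0.14, -0.30, -0.31, -0.10 and -0.32 (paclitaxel 16 h and 48 h, celecoxib 2 h and 16 h, combination), so that the combination changed direction, and the members past the limit went to 13, 14, 22 and 9 for the single drugs. With the same total and a ratio of linear means together, chosen after seeing the data, the medians were -0.040, -0.20, -0.20, 0.025 and -0.29, reversed at 16 h of celecoxib and in the combination, and the counts were 6, 2, 7, 5 and 10. A 2-fold limit gave 27, 27, 22, 62 and 2 members in the same order. A ratio of linear means gave 35 in the combination, a pseudocount of 1 gave a median of -1.53 at 16 h of celecoxib, and index block 2 alone gave -1.12 at 48 h of paclitaxel. Counts under a 2-fold limit or linear means were made for members only, so whether they differ from all genes was not tested. No alternative moved a ratio of member shares by over 1.1 times, though the ratio at 16 h of celecoxib went from 1.03 to 0.995 with the 50 most abundant genes left out of the total. The same limit held when leaving out 5 cells with under 5000 genes detected, which was also added after seeing the data. No paired analysis was possible because the conditions share no replicate numbers. A low value can be a transcript that was not captured, and depth per cell is unknown, so that a gene listed at 0 in a cell cannot be called absent.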
